A study of Mus musculus with 51 samples.

Results

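This account follows 42 genes of DNA replication and of the G1/S transition through a time series of fetal mouse kidney. The genes were taken from lists of origin licensing factors, replication fork proteins, enzymes of nucleotide synthesis and E2F-linked genes that name a row of the deposited expression table, and they are 42 of its 16099 genes. The rule uses no measured value, but the genes were chosen with earlier results of these data known. The roles held 4 origin licensing genes, 7 genes of the MCM helicase group, 4 helicase activation genes and 7 polymerase and primase genes. The others were 5 clamp and clamp loader genes, 3 genes of Okazaki fragment processing and single-strand binding, 4 of nucleotide synthesis, 5 cyclin and E2F genes and 3 of chromatin copying.

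The kidneys came from wild-type C57BL/6 fetuses with no treatment, mutation or other agent named, at 13 time points from CT0 to CT48 in steps of 4 h. CT0 is embryonic day 18 (E18), CT24 is E19 and CT48 is E20 in the labels of the samples, while the text on the series gives E20.5 as the last age, and the times between are given as hours after E18 or E19. Each time point had 4 libraries of polyadenylated RNA from biological replicates, except CT20 with 3, which made 51 libraries. The title of the series names the circadian clock and developmental time in the kidney. Kidneys still forming nephrons from dividing progenitors are compared across 2 days, with separate biological replicates at each time point.

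Before a cell copies its DNA, the origin recognition complex, Cdc6 and Cdt1 load the MCM helicase on replication origins during G1, which is called licensing. Cyclin E with its kinase and the E2F transcription factors then bring the cell into S phase, Cdc45 and the GINS complex turn the helicase on, and the polymerases, the sliding clamp PCNA and its loader RFC extend the new strands. Most of these genes are transcribed under E2F control near the start of S phase, so their messages mark cycling cells, and in the fetal kidney the nephron progenitors and the young epithelia are such cells.

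Values were normalised read counts that the authors had rounded, so the raw depth of a library is unknown, with library totals between 34226024 and 35711911. The table falls into a first part, CT0 to CT24, and a second, CT28 to CT48. The mean log2 level of each member was nearly the same in both parts (the differences lay between -0.02 and 0.03). This held for genes in general: over genes with a mean of at least 100 the SD of that difference was 0.017. It is thus a property of the table and not of the members. No level is therefore compared across the boundary, and each part is described on its own. The spread between libraries of a time point was larger in the second part, with a median SD over members of 0.153 on the log2 scale against 0.0816 in the first. In the second part the libraries of CT28 and CT32 stood apart from the rest: on the first principal component, with 31% of the variance, they lay between -44.2 and -24.1 and the libraries of the other 4 time points between -1.92 and 31.7. Marker genes of kidney cell types (Six2 and Cited1 of nephron progenitors, Umod, Aqp2, Nphs1 and others) were present in every library. The labels name neither dams nor litters, so p-values measure the spread between these samples only. In bulk tissue, fewer cells that copy DNA and less of these messages in each cell cannot be told apart.

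All 42 members passed the filter on low values, a mean of at least 10, and all had nonzero values in every library. Promoter windows from RefSeq (build GRCm38.p6, from 250 bases before to 50 after the start of transcription) were at hand for 34 of the 42. They were searched on both strands for the words TTTCCCGC, TTTCGCGC, TTTGCCGC and TTTGGCGC, which are forms of the E2F binding site and can overlap one another on opposite strands. At least 1 of the words stood in the windows of 14 of the 34 members (41.2%), against 704 of 27025 genes with a window (2.60%). Among 21 mitosis genes with a window it was 1 (4.76%). The word TTTGAA, part of the element found at many mitotic genes, was in 14.7% of the members, 66.7% of the mitosis genes and 20.2% of all genes, and CCAAT in 58.8%, 76.2% and 41.1%. The words were chosen with the members in view, so these shares describe the windows and a match is not a shown binding site.

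The 170 bases before the start are shown for Mcm5, Mcm6 and Pola1. They are the members with a word in that span whose span also lies outside the annotated gene. Orc1, Cdc6, Mcm7 and Rfc3 also had a word in that span, but their spans overlap the annotated gene. How the words relate to the time courses was not tested. Capitals mark the E2F words on either strand, with overlapping words run together. The Mcm5 span is chr8:75109339-75109508 on the + strand, with words starting at -153 and -149 from the start of transcription. The Mcm6 span is chr1:128359706-128359875 on the - strand, with words at -110, -106 and -47. The Pola1 span is chrX:93632156-93632325 on the - strand, with a word at -138.
Mcm5: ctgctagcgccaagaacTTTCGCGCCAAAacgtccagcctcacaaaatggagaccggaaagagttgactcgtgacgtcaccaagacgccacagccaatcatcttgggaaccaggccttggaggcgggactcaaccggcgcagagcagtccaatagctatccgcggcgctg
Mcm6: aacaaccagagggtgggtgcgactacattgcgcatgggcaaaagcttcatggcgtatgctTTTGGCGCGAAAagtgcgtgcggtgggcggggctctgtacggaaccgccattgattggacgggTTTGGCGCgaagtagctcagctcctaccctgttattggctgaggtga
Pola1: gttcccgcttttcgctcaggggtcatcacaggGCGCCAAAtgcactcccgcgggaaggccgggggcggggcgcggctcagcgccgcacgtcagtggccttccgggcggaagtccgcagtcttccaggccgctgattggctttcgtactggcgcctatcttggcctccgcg

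Over the first part the members together were highest at CT0, stayed near their mean from CT4 to CT20 and were lowest at CT24. Against the mean of the part, their average log2 level was 0.11 at CT0, between -0.02 and 0.05 from CT4 to CT20, and -0.18 at CT24. In the second part it was 0.30 at CT28 and 0.24 at CT32, then -0.06 at CT36, -0.17 at CT40, -0.26 at CT44 and -0.06 at CT48. The 42 genes made up 0.261% of the summed values at CT0 and 0.213% at CT24. From CT28 to CT48 they made up 0.287%, 0.278%, 0.24%, 0.213%, 0.205% and 0.237%. Single libraries of CT0 lay between 0.05 and 0.16 and those of CT24 between -0.29 and -0.12, with no overlap. The libraries of CT28 lay between 0.25 and 0.33 and those of CT44 between -0.38 and -0.10.

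**Figure D1:**
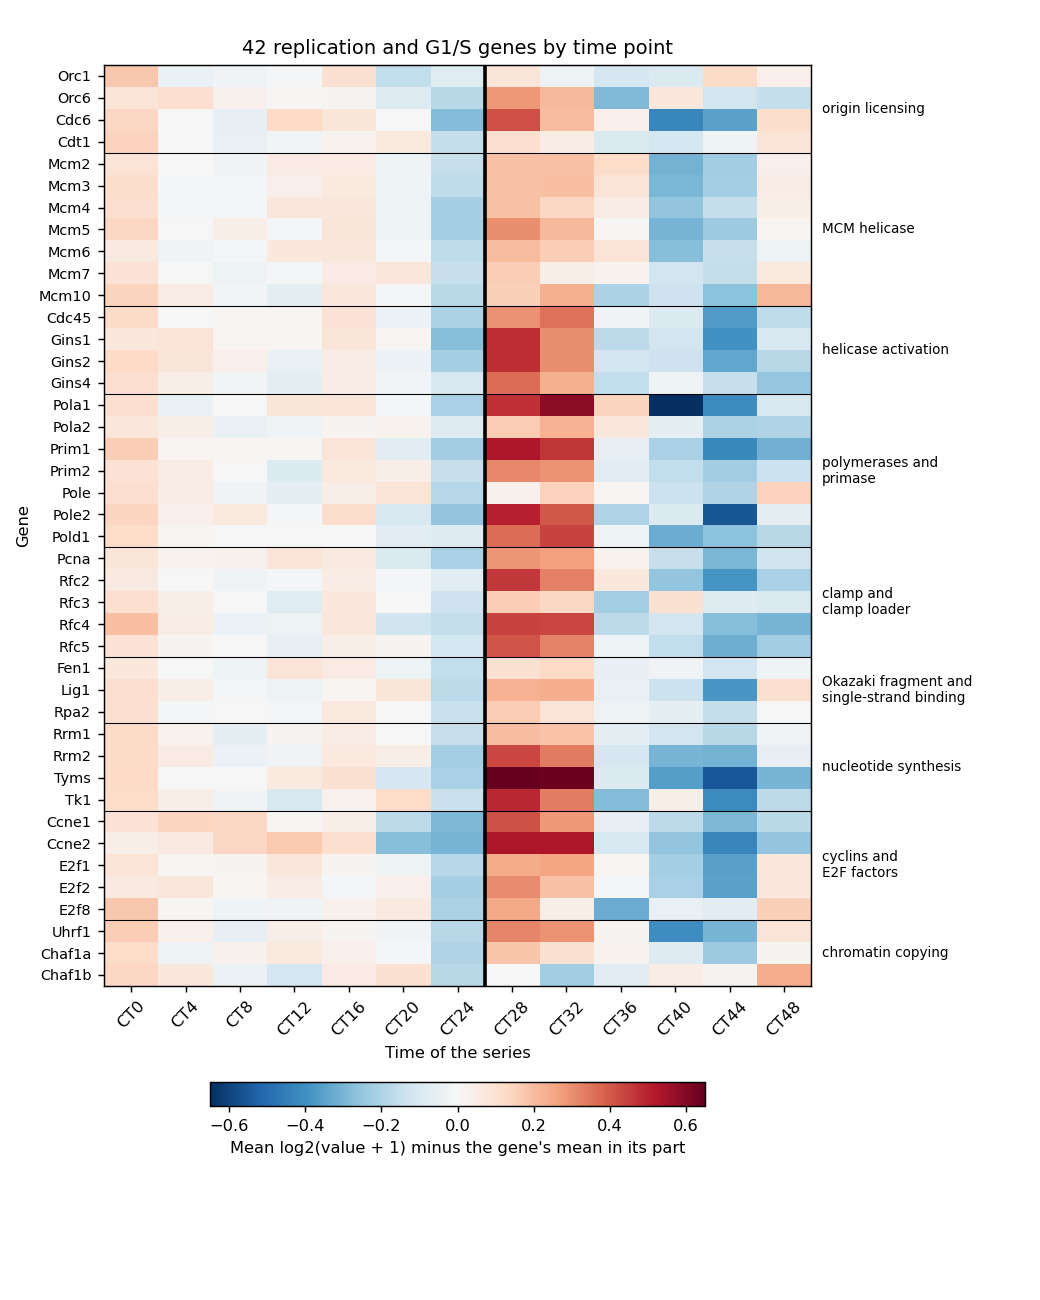
Mean log2 level of each of the 42 genes (rows, grouped by role, named at the right) at each of the 13 time points (columns), relative to the gene's mean in its part of the series; the black vertical line separates CT0 to CT24 from CT28 to CT48. The CT24 column is low in nearly all rows, CT28 and CT32 are high in most, and Chaf1b, the bottom row, is low at CT32 and high at CT48.

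The first comparison set CT24 against CT0, the same clock time 1 day apart. Of the 42 members, 41 were lower at CT24 and 0 were higher (limma, Benjamini-Hochberg adjusted p under 0.05), where 12.2% of the 14426 genes tested were called lower and 14.3% higher. The median difference over the members was -0.29 on the log2 scale, against 0.0011 over all tested genes, and the members ranged from -0.42 to -0.14. The 4 libraries of CT24 lay below the 4 of CT0 for the same number, 41, where 13.2% of all genes showed this. The fit used the 27 libraries of the first part and was chosen knowing that it makes more calls than a single fit of all 51 libraries. In that single fit 32 members were lower, where 3.96% of all genes were, and E2f1, E2f2, Fen1, Mcm2, Orc1, Pola2, Pold1, Prim2 and Tk1 missed the threshold with adjusted p from 0.06 to 0.288.

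**Figure D2:**
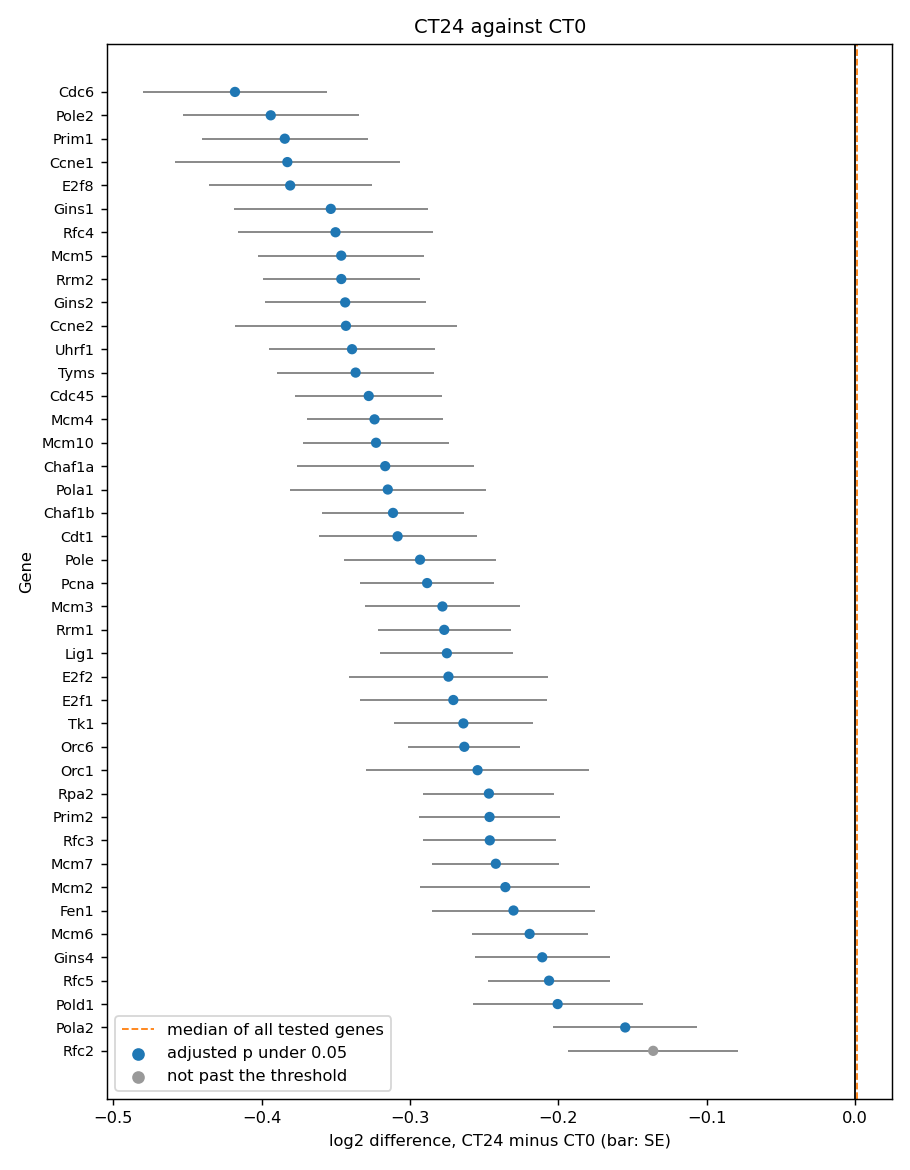
Log2 difference between CT24 and CT0 for each of the 42 genes, with SE as bars, from 4 libraries at each time; blue points passed the threshold of 0.05 on the adjusted p, the grey point did not, and the dashed line is the median over all 14426 tested genes. All 42 points lie below 0, from Cdc6 at -0.42 to Rfc2 at -0.14.

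All 4 origin licensing genes fell. Cdc6, the loader that brings the MCM ring to the origin, had values of 725, 841, 770 and 749 at CT0 and 616, 530, 608 and 555 at CT24, a log2 difference of -0.42 (SE 0.06, limma adjusted p = 1.04e-05). It was the member with the largest difference, and its highest library at CT24 was below its lowest at CT0. Orc1, the largest subunit of the origin recognition complex, had 294, 294, 320 and 299 at CT0 and 278, 239, 234 and 262 at CT24, a log2 difference of -0.25 (SE 0.08, limma adjusted p = 0.0122). Without replicate 3 of CT24 the adjusted p for Orc1 was 0.0542. Cdt1, the partner of Cdc6 in licensing, had 1349, 1518, 1419 and 1478 at CT0 and 1199, 1063, 1154 and 1241 at CT24, a log2 difference of -0.31 (SE 0.05, limma adjusted p = 7.23e-05). Orc6, the smallest origin recognition subunit, fell by 0.26 on the log2 scale.

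The 7 genes of the MCM group all fell, with a median of -0.28. Mcm2, a subunit of the helicase ring, had 3634, 4328, 3986 and 3970 at CT0 and 3573, 3025, 3406 and 3516 at CT24, a log2 difference of -0.24 (SE 0.06, limma adjusted p = 0.00286). The highest CT24 value lay just under the lowest CT0 value, a gap narrower than the range within either time point. Mcm5, another subunit of the ring, had 3493, 3956, 3867 and 3739 at CT0 and 3168, 2546, 2992 and 3168 at CT24, a log2 difference of -0.35 (SE 0.06, limma adjusted p = 3.82e-05). Mcm10, which is not part of the ring but binds it as forks start, had 866, 908, 941 and 938 at CT0 and 760, 728, 723 and 708 at CT24, a log2 difference of -0.32 (SE 0.05, limma adjusted p = 1.54e-05). The ranges of the 2 times were well separated for both genes. Mcm3, Mcm4, Mcm6 and Mcm7 fell by 0.22 to 0.32 on the log2 scale.

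Of the 4 helicase activation genes, all fell. Cdc45, which joins MCM and GINS in the active helicase, had 883, 990, 917 and 904 at CT0 and 772, 719, 696 and 755 at CT24, a log2 difference of -0.33 (SE 0.05, limma adjusted p = 1.25e-05). Of the GINS subunits, Gins1 fell by 0.35, Gins2 by 0.34 and Gins4 by 0.21 on the log2 scale.

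Polymerases and primase fell as well, all 7. Pole2, the second subunit of the leading strand polymerase epsilon, had 644, 689, 696 and 658 at CT0 and 509, 490, 489 and 558 at CT24, a log2 difference of -0.39 (SE 0.06, limma adjusted p = 1.25e-05). Prim1, the catalytic primase subunit that lays down RNA primers, had 1419, 1414, 1447 and 1358 at CT0 and 1146, 1037, 1038 and 1100 at CT24, a log2 difference of -0.38 (SE 0.06, limma adjusted p = 7.97e-06). Pola1, the catalytic subunit of polymerase alpha that extends these primers, had 1776, 1814, 1545 and 1594 at CT0 and 1488, 1332, 1286 and 1299 at CT24, a log2 difference of -0.31 (SE 0.07, limma adjusted p = 0.000722). For each of these 3 genes the 2 times did not overlap. The other subunit of polymerase alpha, Pola2, fell by 0.15, and its adjusted p was 0.0523 without replicate 3 of CT0 and 0.0686 without replicate 2 of CT24. Prim2, Pole and Pold1 fell by 0.25, 0.29 and 0.20.

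At the clamp, 4 of the 5 genes fell. Pcna, the ring that holds polymerases on DNA, had 5785, 6047, 5856 and 5561 at CT0 and 5116, 4415, 4751 and 4770 at CT24, a log2 difference of -0.29 (SE 0.05, limma adjusted p = 1.94e-05). Rfc3, a subunit of the loader that opens this ring, had 1286, 1314, 1421 and 1264 at CT0 and 1091, 1084, 1089 and 1190 at CT24, a log2 difference of -0.25 (SE 0.04, limma adjusted p = 0.000134). Rfc2, another loader subunit, had 2185, 2400, 2150 and 2048 at CT0 and 2115, 1769, 1989 and 2127 at CT24, a log2 difference of -0.14 (SE 0.06, limma adjusted p = 0.0772). Rfc2 was the member with the smallest difference, the only one that missed the threshold and the only one whose times overlapped, in 2 libraries of CT24. Rfc4 and Rfc5 fell by 0.35 and 0.21.

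On the lagging strand all 3 genes fell. Fen1, the nuclease that trims Okazaki fragments, had 1315, 1491, 1525 and 1422 at CT0 and 1250, 1150, 1201 and 1300 at CT24, a log2 difference of -0.23 (SE 0.06, limma adjusted p = 0.00232). Lig1, the ligase that joins them, had 2865, 3151, 3065 and 3256 at CT0 and 2683, 2373, 2542 and 2595 at CT24, a log2 difference of -0.28 (SE 0.04, limma adjusted p = 3.41e-05). Both genes were lower in every CT24 library than in any CT0 library. Rpa2, a subunit of the protein that coats single-stranded DNA, fell by 0.25.

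The 4 enzymes of nucleotide synthesis fell by similar amounts. Rrm2, the subunit of ribonucleotide reductase whose level follows S phase, had 3207, 3528, 3588 and 3343 at CT0 and 2837, 2483, 2608 and 2827 at CT24, a log2 difference of -0.35 (SE 0.05, limma adjusted p = 1.65e-05). Tyms, thymidylate synthase, had 2065, 2237, 2158 and 2051 at CT0 and 1782, 1505, 1671 and 1793 at CT24, a log2 difference of -0.34 (SE 0.05, limma adjusted p = 2.25e-05). Tk1, thymidine kinase of the cytosol, had 1468, 1650, 1595 and 1579 at CT0 and 1344, 1189, 1306 and 1405 at CT24, a log2 difference of -0.26 (SE 0.05, limma adjusted p = 0.000101). None of the 3 overlapped between the times, and Rrm1, the large subunit of the reductase, fell by 0.28.

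All 5 cyclin and E2F genes fell. Ccne1, cyclin E1, had 654, 768, 785 and 682 at CT0 and 600, 459, 567 and 595 at CT24, a log2 difference of -0.38 (SE 0.08, limma adjusted p = 0.000373). Ccne2, cyclin E2, had values between 953 and 1009 in the 4 libraries of CT0 (984 ± 25.2 (SD, n = 4)) and 840, 716, 751 and 799 at CT24, a log2 difference of -0.34 (SE 0.07, limma adjusted p = 0.00106). Among both cyclins the highest CT24 library stayed under the lowest CT0 library. E2f1, an activating E2F, had 949, 996, 850 and 934 at CT0 and 793, 708, 763 and 826 at CT24, a log2 difference of -0.27 (SE 0.06, limma adjusted p = 0.00176). E2f2, a second activator, had 558, 593, 568 and 565 at CT0 and 496, 427, 460 and 509 at CT24, a log2 difference of -0.27 (SE 0.07, limma adjusted p = 0.00269). E2f8, a repressor that E2F activators turn on, had 1247, 1388, 1326 and 1409 at CT0 and 1090, 976, 1036 and 1020 at CT24, a log2 difference of -0.38 (SE 0.05, limma adjusted p = 7.14e-06). The activators and the repressor were thus lower at the same time, again with no overlap.

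The chromatin copying genes, 3 in number, fell too. Uhrf1, which reads hemimethylated DNA behind the fork, had 4075, 4628, 4520 and 4369 at CT0 and 3514, 3199, 3504 and 3692 at CT24, a log2 difference of -0.34 (SE 0.06, limma adjusted p = 5.27e-05). Chaf1b, a subunit of the histone chaperone CAF-1, had 1069, 1208, 1234 and 1129 at CT0 and 943, 866, 950 and 977 at CT24, a log2 difference of -0.31 (SE 0.05, limma adjusted p = 1.56e-05). Chaf1a, its partner, fell by 0.32, and neither subunit overlapped between the times.

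A straight line through the first part was also fitted. Its slope was below 0 for all 42 members and passed the threshold for 35, where 10.01% of all genes had a falling slope and 12.9% a rising one. The median slope was -0.19 per 24 h on the log2 scale. Ccne1 had the steepest slope, -0.39 (SE 0.07, limma adjusted p = 0.000101). Libraries of Ccne1 averaged 722 ± 64.1 (SD, n = 4) at CT0, 744 ± 76.4 (SD, n = 4) at CT8, 696 ± 31.3 (SD, n = 4) at CT16 and 555 ± 65.8 (SD, n = 4) at CT24. Rfc2 had the flattest, -0.08 (SE 0.05, adjusted p = 0.243). The lines rest on the ends of the part: 10 members passed without CT0, 3 without CT24 (Orc6, Rfc4 and Ccne1) and 3 with 1 mean per time point (Orc6, Gins2 and Ccne1). Without the libraries of replicate 2 it was 13.

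In the second part the largest step down of the members' mean lay between CT32 and CT36. At CT36, 25 of the 42 members were lower than at CT32 and 0 were higher, where 19.1% of all genes were lower and 15.7% higher. The median over members was -0.28 on the log2 scale, against -0.01 over all genes, and the 4 libraries did not overlap for 20 of them, against 16.9% of all genes. CT32 is one of the 2 time points that stood apart from the rest of the part, and the share of its distance in these differences was not tested.

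By role, all 4 nucleotide synthesis genes, all 4 helicase activation genes, all 5 clamp genes and 5 of 7 polymerase genes passed, but 1 of 4 licensing genes (Orc6) and 1 of 7 MCM genes (Mcm10). Whether the roles differ from each other was not tested. Tyms had the largest difference, with 2764, 2434, 3697 and 3282 at CT32 and 2189, 1703, 1661 and 1764 at CT36, a log2 difference of -0.73 (SE 0.12, limma adjusted p = 4.43e-05). Every CT36 library of Tyms was below every CT32 library. Mcm7, a subunit of the MCM ring, had the smallest, with 4263, 4524, 4730 and 4993 at CT32 and 4344, 5006, 4808 and 4151 at CT36, a log2 difference of -0.02 (SE 0.07, limma adjusted p = 0.876). The ranges of Mcm7 overlapped widely.

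Other members fell by 0.4 or more on the log2 scale. Ccne2 had 1510, 1154, 1474 and 1429 at CT32 and 1039, 934, 916 and 720 at CT36, a log2 difference of -0.63 (SE 0.11, limma adjusted p = 7.65e-05). Tk1 had 1745, 1583, 2079 and 1968 at CT32 and 1422, 1248, 1206 and 957 at CT36, a log2 difference of -0.62 (SE 0.13, limma adjusted p = 0.000735). Pole2 had 845, 737, 862 and 818 at CT32 and 634, 453, 550 and 520 at CT36, a log2 difference of -0.60 (SE 0.10, limma adjusted p = 5.65e-05). In all 3 genes the times were fully separated. Prim1 had 1658, 1543, 1951 and 1820 at CT32 and 1420, 1146, 1155 and 1139 at CT36, a log2 difference of -0.52 (SE 0.11, limma adjusted p = 0.000458). Its replicate 1 at CT36 was higher than the other 3 but still under the lowest CT32 library. Orc6 had 1692, 1452, 1671 and 1746 at CT32 and 1181, 1199, 1178 and 1077 at CT36, a log2 difference of -0.50 (SE 0.08, limma adjusted p = 1.3e-05), again without overlap.

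The weaker calls of this comparison depended on single libraries. Ccne1, Lig1, Prim2, Rrm1 and Uhrf1 each missed the threshold when 1 of the 8 libraries was left out, Ccne1 and Lig1 for instance without replicate 4 of CT36 (adjusted p = 0.185 and 0.11). The difference was -0.34 for Ccne1, -0.29 for Lig1, -0.36 for Prim2, -0.25 for Rrm1 and -0.27 for Uhrf1. Without replicate 4 of CT36, Rrm1 had an adjusted p of 0.0583 and Uhrf1 of 0.147. Without replicate 3 of CT32, Prim2 had 0.0883.

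From CT36 to CT40, Pola1 and 5 of the 7 MCM genes fell. This comparison was added after the values had been seen. Of the members 10 were lower and 2 higher at CT40, where 9.27% of all genes were lower and 8.47% higher. The median over members was -0.12 on the log2 scale, against 0.01 over all genes. Pola1 had the largest difference, with 1827, 1611, 1773 and 1703 at CT36 and 841, 855, 1018 and 1190 at CT40, a log2 difference of -0.84 (SE 0.10, limma adjusted p = 5.82e-06). Its highest CT40 library, 1190, lay below its lowest CT36 library, 1611. Gins2, a GINS subunit, had the smallest, with 944, 791, 792 and 766 at CT36 and 928, 739, 729 and 884 at CT40, a log2 difference of -0.01 (SE 0.11, limma adjusted p = 0.968).

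Of the 7 MCM genes 5 fell between CT36 and CT40. Mcm2 had 3982, 4461, 4416 and 3486 at CT36 and 2737, 3034, 3695 and 2718 at CT40, a log2 difference of -0.43 (SE 0.10, limma adjusted p = 0.00602). Replicate 3 at CT40 was the highest of its time and overlapped the lowest CT36 library. Mcm3, Mcm4, Mcm5 and Mcm6 fell by 0.38, 0.31, 0.31 and 0.37, while Mcm7 at -0.15 and Mcm10 at 0.08 did not pass. Cdc6 had 818, 731, 743 and 629 at CT36 and 414, 576, 678 and 484 at CT40, a log2 difference of -0.46 (SE 0.14, limma adjusted p = 0.0273). Uhrf1 had 3978, 4446, 4289 and 3478 at CT36 and 2862, 3128, 3617 and 2538 at CT40, a log2 difference of -0.42 (SE 0.10, limma adjusted p = 0.00587). The times overlapped in both, again through replicate 3 of CT40. Rfc2 fell by 0.33 and Pold1 by 0.29.

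The 2 genes that rose were Orc6 and Rfc3, a smaller share of the members than the 8.47% of all genes that were higher. Orc6 had 1181, 1199, 1178 and 1077 at CT36 and 1554, 1467, 1385 and 1556 at CT40, a log2 difference of 0.36 (SE 0.08, limma adjusted p = 0.00138). Rfc3 had 1118, 988, 1113 and 1020 at CT36 and 1336, 1273, 1320 and 1364 at CT40, a log2 difference of 0.32 (SE 0.10, limma adjusted p = 0.0219). Neither overlapped between the times, and CT36 was the lowest time point of the second part for both. The calls for Cdc6, Mcm4, Mcm5, Pold1 and Rfc3 were each lost without 1 of the 8 libraries. Their highest adjusted p without 1 library was 0.119 for Cdc6 and 0.0608 for Pold1 (replicate 1 of CT40), 0.101 for Mcm4 (replicate 3 of CT36), 0.0719 for Rfc3 (replicate 2 of CT36) and 0.0541 for Mcm5 (replicate 4 of CT40).

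**Figure D3:**
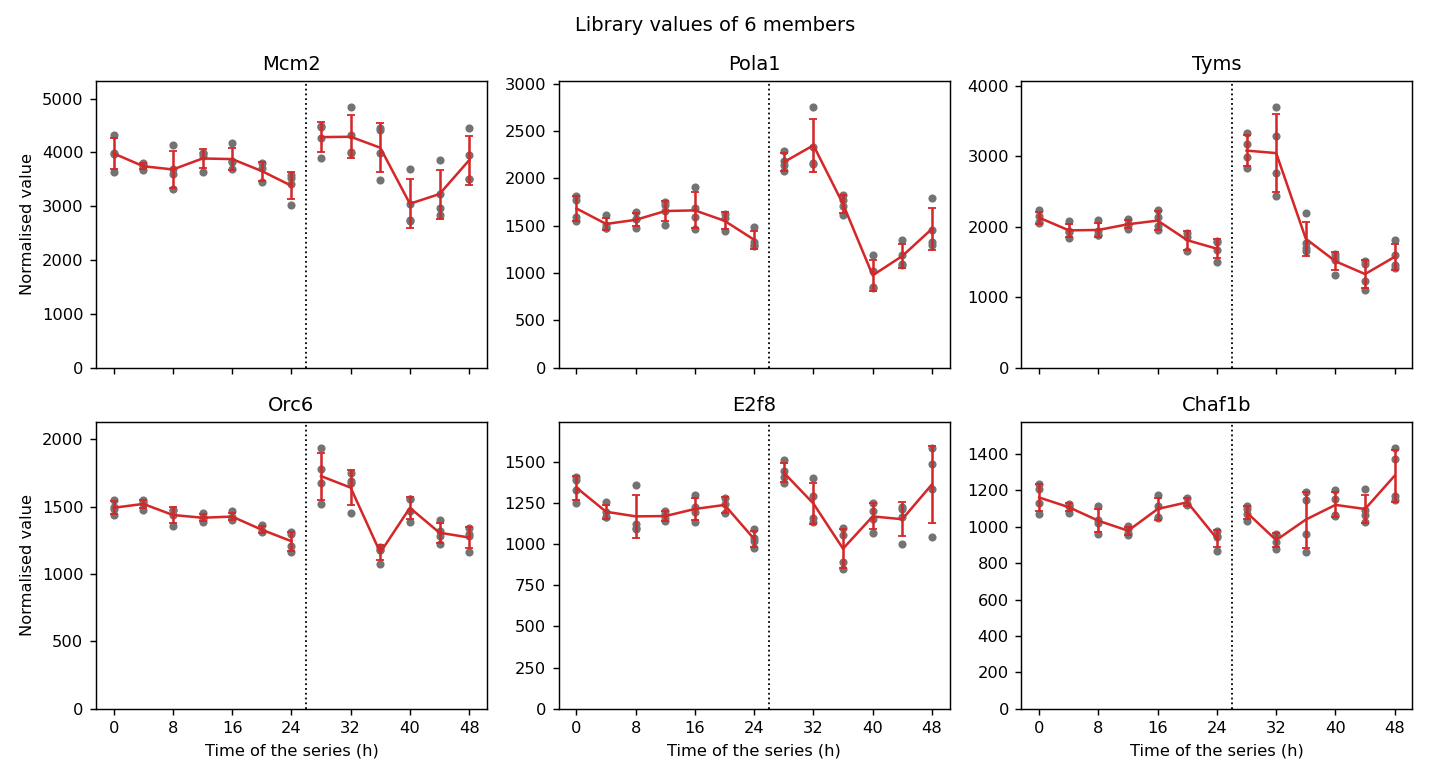
Normalised value in each library (grey points) and mean with SD (red) of Mcm2, Pola1, Tyms, Orc6, E2f8 and Chaf1b over the series in hours, with axes from 0 and a dotted line between the 2 parts. Pola1 was lowest at CT40, Orc6 at CT36 and Tyms at CT44 within the second part, while Chaf1b was highest at CT48.

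Between CT36 and CT48, 12 h apart, few members differed: 2 were lower and 3 higher, where 7.17% of all genes were lower and 6.74% higher. Both counts of members are near or below those shares. E2f8 had the largest difference, with 891, 1052, 1095 and 850 at CT36 and 1487, 1335, 1043 and 1582 at CT48, a log2 difference of 0.48 (SE 0.10, limma adjusted p = 0.00267). It kept passing without any 1 of the 8 libraries. Mcm10 had 887, 683, 750 and 600 at CT36 and 879, 1053, 843 and 1136 at CT48, a log2 difference of 0.42 (SE 0.13, limma adjusted p = 0.0266). Chaf1b had 960, 1188, 1145 and 862 at CT36 and 1169, 1431, 1146 and 1374 at CT48, a log2 difference of 0.31 (SE 0.09, limma adjusted p = 0.0217). The times overlapped in all 3 genes. Without replicate 4 of CT36 the adjusted p was 0.108 for Mcm10 and 0.111 for Chaf1b. Rfc2 and Pola2 were lower by -0.28 and -0.27, and without replicate 1 of CT36 their adjusted p was 0.0619 and 0.175. Chaf1a had the smallest difference, with 1707, 1956, 1798 and 1475 at CT36 and 1744, 1855, 1578 and 1724 at CT48 and a log2 difference of -0.0022 (SE 0.09).

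Between CT44 and CT48, added after the values had been seen, 37 of 42 members had a difference above 0, with a median of 0.20 against -0.0007 over all genes. Only Pole2 and Lig1 passed the threshold, both higher at CT48, and 0 were lower, where 0.104% of all genes were higher and 0.111% lower. Pole2 had 420, 388, 467 and 401 at CT44 and 570, 575, 542 and 680 at CT48, a log2 difference of 0.50 (SE 0.10, limma adjusted p = 0.0397). Lig1 had 2146, 1941, 2749 and 2124 at CT44 and 2840, 3471, 2649 and 3559 at CT48, a log2 difference of 0.48 (SE 0.10, limma adjusted p = 0.0397). Pole2 was separated between the times and Lig1 overlapped. Leaving out 1 library gave between 0 and 6 members higher, so neither call is firm: without replicate 1 of CT44 the adjusted p was 0.12 for Pole2 and 0.14 for Lig1. Rfc3 had the smallest difference, with 1188, 1072, 1196 and 1211 at CT44 and 949, 1331, 1080 and 1311 at CT48 and a log2 difference of -0.01 (SE 0.10).

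The slope over CT28 to CT48 passed for 33 members downwards and 1 upwards, where 30.7% of all genes had a falling and 28.7% a rising slope. The median over members was -0.54 per 24 h on the log2 scale. Tyms was steepest at -1.49 (SE 0.20, limma adjusted p = 5.53e-07). Its libraries held 2991, 3332, 2828 and 3169 at CT28 and the values above at CT32 and CT36. They then held 1532, 1321, 1618 and 1569 at CT40, 1468, 1104, 1515 and 1227 at CT44 and 1411, 1602, 1464 and 1815 at CT48. Every Tyms library of CT28 and CT32 exceeded every later one. Orc1 was flattest at 0.04 (SE 0.19), with 275, 261, 299 and 308 at CT28 and 238, 315, 222 and 347 at CT48.

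These slopes rest on CT28 and CT32, the libraries that stood apart. Without both, 1 member had a falling slope (Pola2, -0.56, adjusted p = 0.036) and 1 a rising one (E2f8, 0.84, adjusted p = 0.0238), where 3.57% of all genes fell and 3.87% rose. Without CT28 alone 19 members fell. Within CT36 to CT48 the line for 11 of the 33 members pointed upwards, none of them past the threshold.

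Chaf1b was the 1 member with a rising slope, 0.35 per 24 h (SE 0.11, limma adjusted p = 0.0057). Its libraries held 1098, 1033, 1114 and 1069 at CT28, 877, 953, 916 and 958 at CT32, 1090, 1028, 1205 and 1065 at CT44 and 1169, 1431, 1146 and 1374 at CT48. The CT48 libraries all lay above those of CT28 and CT32. It missed the threshold without CT32 and without CT48, and the count of rising members was then 0. Without CT28 and CT32 together its slope was 0.53 (adjusted p = 0.0937) and did not pass. Its partner Chaf1a had a slope of -0.33 (SE 0.11, adjusted p = 0.00841).

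The slopes of the 2 parts were compared in 1 fit of all libraries. This fit takes 1 spread per gene for both parts, although libraries varied more in the second. In simulated data with 200 changed genes among 14426, 13.9% of its calls were of unchanged genes. Its adjusted p-values may thus be less reliable than those within a part. Many more genes were called in these data, and the simulated noise was independent between genes. The 13.9% is therefore not an estimate for these data. The slope was lower in the second part for 20 members and higher for 1, where 29.8% of all genes had a lower and 25.3% a higher one. Tyms had the largest difference of slopes, -1.25 (SE 0.19, limma adjusted p = 3.21e-07), and Mcm10 the smallest, 0.03 (SE 0.18). Chaf1b had 0.54 (SE 0.12, adjusted p = 0.000129), and without CT28 and CT32 it had 0.72 (adjusted p = 0.00365). Without these time points 2 members had a lower slope, Pola2 at -0.46 and Rfc2 at -0.50, and 4 a higher one, Cdt1 at 0.54, Mcm10 at 0.90 and E2f8 at 1.07 beside Chaf1b, where 10.2% of all genes had a lower and 9.996% a higher one.

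**Figure D4:**
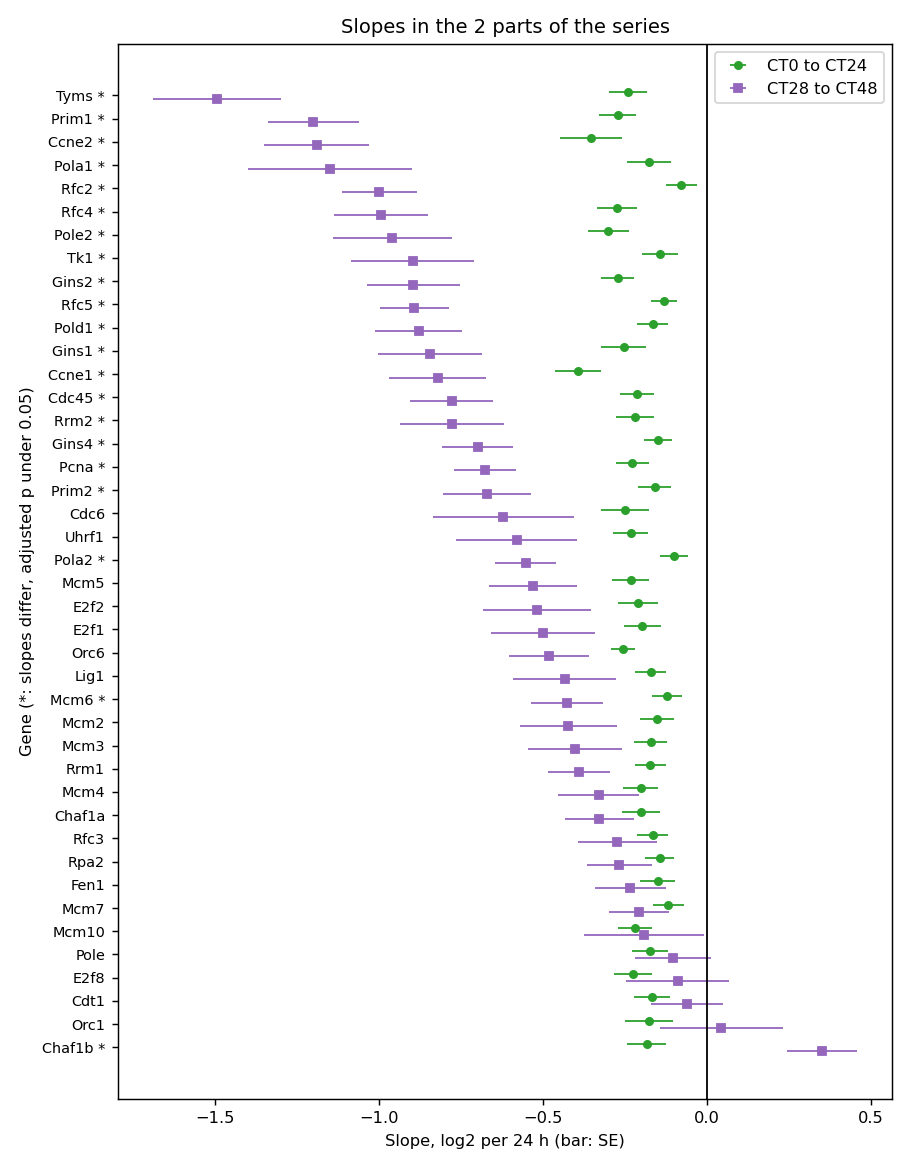
Slope per 24 h on the log2 scale of each of the 42 genes in CT0 to CT24 (green circles, 27 libraries) and CT28 to CT48 (purple squares, 24 libraries), with SE as bars and an asterisk where the 2 slopes differed past the threshold. The slopes of the second part run from -1.49 for Tyms to 0.35 for Chaf1b, and those of the first from -0.39 for Ccne1 to -0.08 for Rfc2.

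Since the series is about the clock, a 24 h wave was fitted over all 51 libraries beside the line and the step. It passed for 4 of 42 members, where 12.3% of all genes passed, which is a share of members near or below the background. Pola1 had the largest amplitude, 0.25 on the log2 scale (limma adjusted p = 0.0447), followed by Ccne2 at 0.22 (adjusted p = 0.0169), Pold1 at 0.15 (adjusted p = 0.0494) and Chaf1b at 0.13 (adjusted p = 0.0158). Rpa2 had the smallest, 0.0069. The fitted peaks lay at 6.8 h for Pola1, 7.8 h for Ccne2, 6.2 h for Pold1 and 20.8 h for Chaf1b. The fit takes 1 line for both parts, while the slopes of all 4 genes differed between the parts. How far that enters the waves was not tested. Without CT32 none of the 4 passed. Without CT28 and CT32 only Ccne2 passed, at 0.13 (limma adjusted p = 0.0196). The amplitude was then 0.11 for Pola1 (adjusted p = 0.453), 0.03 for Pold1 (adjusted p = 0.788) and 0.096 for Chaf1b (adjusted p = 0.0619). None of the 4 passed with time-point means (0 members), and with the step left out 30 members passed, where 44.4% of all genes did. For Pola1 the means were 1562 ± 69.6 (SD, n = 4) at CT8, 1662 ± 189 (SD, n = 4) at CT16, 1351 ± 93.2 (SD, n = 4) at CT24, 2349 ± 283 (SD, n = 4) at CT32, 976 ± 164 (SD, n = 4) at CT40 and 1466 ± 225 (SD, n = 4) at CT48.

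The authors' deposited table of a rhythm search (meta2d) gave a q-value under 0.05 for 33 of the 42 members (78.6%) and for 6647 of 16099 genes (41.3%). The periods in the authors' deposited table ran from 20 to 28 h. Of the 33 members, 17 had a period of 26 h or more, 7 of 22 h or less and 9 between, in the authors' deposited table. Several of these periods lay at an end of the range in the authors' deposited table. Prim1 and Rfc2 had 28 h there, and Mcm2 and Mcm6 had 20 h. A period at an end may be a bound of the search and not an estimate. For Ccne2 the authors' deposited table gave a period of 23.7 h and for Tyms 26.5 h.

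Other genes of the same pathways were read from lists that hold no member. Among all tested genes, 12.2% were lower and 14.3% higher at CT24 than at CT0. The shares were 19.1% and 15.7% at CT36 against CT32, and 9.27% and 8.47% at CT40 against CT36. Of 39 other replication genes, 32 were lower at CT24 than at CT0 and 1 higher (median -0.22), with Chtf18, of an alternative clamp loader, at -0.36 and Dut, the dUTPase, at -0.34. At CT36 against CT32, 19 were lower and 0 higher, led by Gmnn, the inhibitor of Cdt1, at -0.83, Rpa3 at -0.81 and Cdc7, the kinase that fires origins, at -0.63. At CT40 against CT36, 4 were lower and 5 higher, not far from the shares over all genes. Dnmt1, the maintenance DNA methyltransferase that works with Uhrf1, was lower by -0.40 and Dbf4, the partner of Cdc7, was higher by 0.36.

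Of 25 G1/S regulators, 10 were lower and 2 higher at CT24 than at CT0. The largest of all was a rise of Cdkn1a, the kinase inhibitor p21, by 0.44 (SE 0.06). E2f7, the relative of E2f8, was lower by -0.34 and Mybl2 by -0.30. At CT36 against CT32, 10 were lower and 1 higher, with Fbxo5, an inhibitor of the anaphase promoting complex, at -0.68 and Cdkn1c, the inhibitor p57, at -0.64. At CT40 against CT36, 4 were lower and 4 higher. The lower ones were Ccnd2 and Ccnd1, D cyclins that act before cyclin E, at -0.40 and -0.32, Cdc25a at -0.22 and Tfdp1 at -0.20. The higher ones were Cdkn2d, an inhibitor of the cyclin D kinases, at 0.45, Tfdp2, a partner of E2F factors, at 0.37, Cdkn1b, the inhibitor p27, at 0.31 and E2f5 at 0.25.

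The mitosis genes were lower at CT24 and at CT36, and most of them were higher at CT40. Of 25 mitosis genes, 25 were lower at CT24 than at CT0 (median -0.31) and 25 lower at CT36 than at CT32 (median -0.48). At CT40 against CT36, 18 were higher and 0 lower (median 0.32), with Aurkb, the kinase of the chromosomal passenger complex, at 0.65, Aurka at 0.54 and Kif23 at 0.53. The MCM genes had a median of -0.31 in the same comparison. Against their mean in the second part, MCM genes averaged 0.02 at CT36, -0.24 at CT40, -0.20 at CT44 and 0.05 at CT48. The mitosis genes averaged -0.25, 0.06, -0.17 and -0.38 at those times. This opposite course was noticed in the data, the comparisons of CT36 share libraries, and the difference between the lists was not tested. The MCM genes were the role with the lowest median at CT40 against CT36. Medians of the other roles lay between -0.15 (cyclin and E2F genes) and 0.02 (helicase activation genes). Libraries of CT36 and CT40 overlapped in all 7 MCM genes. At CT48 against CT44, 4 mitosis genes were lower and 0 higher, Ccnb2, cyclin B2, most of all at -0.43.

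**Figure D5:**
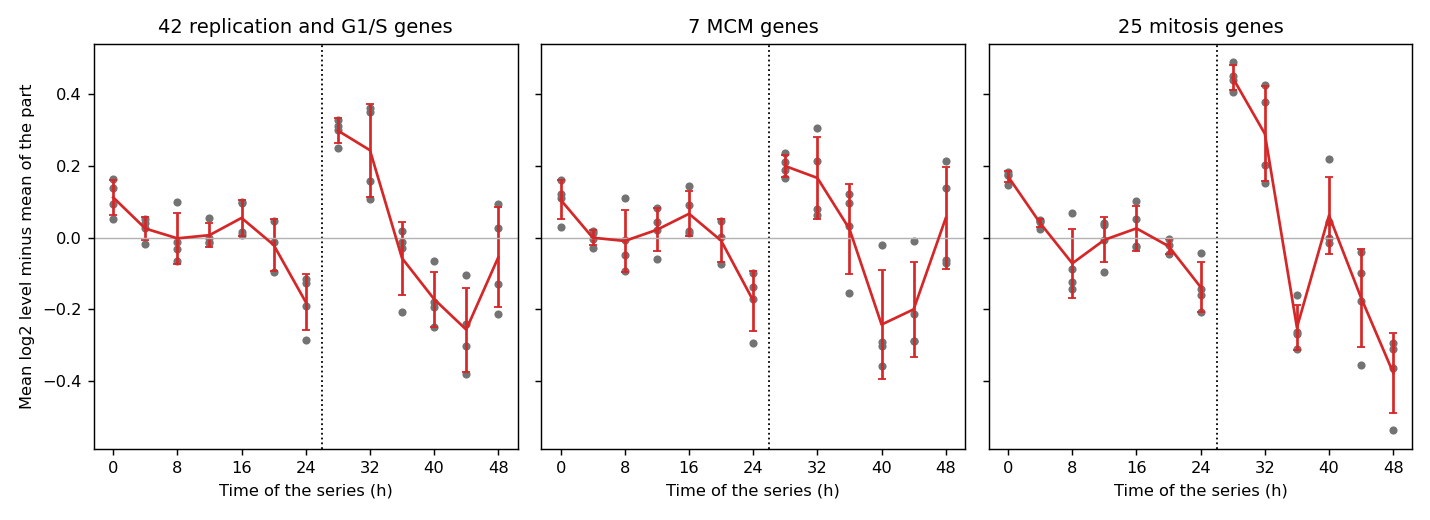
Mean log2 level of the 42 genes, the 7 MCM genes and the 25 mitosis genes in each library (grey points), relative to the mean of its part, with the mean and SD of each time point in red and a dotted line between the parts. MCM genes averaged 0.02 at CT36 and -0.24 at CT40, and mitosis genes -0.25 and 0.06.

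Markers of cell types also changed, some downwards like the members and others upwards, and their part in the results was not tested. Among all genes 12.2% were lower and 14.3% higher at CT24 than at CT0. From CT0 to CT24, 5 of 8 nephron progenitor markers were lower and 1 higher, led by Eya1 at -0.45, and the summed values of the list ran from 22174 to 22968 at CT0 and from 20693 to 21956 at CT24. All 8 proximal tubule markers were higher (Kap at 1.19), from sums of 99639 to 118439 to sums of 150948 to 169293. All 4 markers of the loop and distal tubule (Umod at 0.97) and all 4 of the collecting duct (Aqp2 at 0.76) were higher too. Of stroma markers 3 of 4 were lower and of endothelium markers 3 of 5 higher. Of podocyte markers 4 of 5 were higher and 1 lower, and of macrophage markers 2 of 3 were higher. Of 6 early nephron and 5 ureteric tip markers 0 passed in either direction. No marker of these 10 lists that has a row was at 0 in any library. Of the lists for neighbouring organs, 1 of 4 liver markers was higher, 1 of 4 skeletal muscle markers lower and 0 of 3 adrenal markers differed. Their median log2 differences were 1.19, -0.45 and 0.08, with all 4 liver markers above 0 and all 4 muscle markers below 0. At CT36 against CT32, 1 liver marker was lower and 1 higher, with a range from -2.33 to 0.93. Among all genes 19.1% were lower and 15.7% higher there. At CT40 against CT36 no liver or muscle marker passed, with ranges from -0.09 to 2.48 and from -0.29 to 1.67.

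From CT32 to CT36, 4 of 4 loop and distal tubule markers and 3 of 4 collecting duct markers were higher, while 3 of 8 nephron progenitor markers were lower and 1 higher. Of ureteric tip markers 4 of 5 and of endothelium markers 3 of 5 were higher and 0 lower, and of 8 proximal tubule markers 2 were higher and 1 lower. Early nephron, podocyte and macrophage markers had 1 higher each and 0 lower, and stroma markers 0 in either direction. Among all genes 19.1% were lower and 15.7% higher. From CT36 to CT40, 2 of 4 loop and distal tubule markers (Slc12a1 at -0.54) and 2 of 8 proximal tubule markers (Gatm at -0.82) were lower, as were 2 of 5 podocyte markers and 1 of 8 nephron progenitor markers. The only marker of the other kidney lists that passed was 1 of 6 early nephron markers, which was higher. Among all genes 9.27% were lower and 8.47% higher. Over the slope of CT28 to CT48, 5 of 5 endothelium, 4 of 4 collecting duct, 3 of 3 macrophage, 4 of 5 ureteric tip and 3 of 4 loop and distal tubule markers rose and 0 fell. Of 8 nephron progenitor markers 4 fell and 1 rose, of 8 proximal tubule markers 2 rose, and of 6 early nephron markers 2 rose. Among all genes 30.7% fell and 28.7% rose, so counts such as 2 of 8 or 2 of 6 are near that background. Without CT28 and CT32, which stood apart, 3.57% of all genes fell and 3.87% rose. Slopes of the markers were not fitted without these time points, so how far they rest on them was not tested. Podocyte markers had 2 rising and 2 falling of 5, stroma markers 2 rising and 1 falling of 4, and erythroid markers 1 rising and 1 falling of 4. Of 4 erythroid markers 0 differed at CT24 from CT0 or at CT40 from CT36, and 1 was higher at CT36 than at CT32. The sums of the erythroid list ran from 741 to 924 at CT36 and from 823 to 1846 at CT40. Hemgn, of this list, was at 0 in 5 of the 51 libraries.

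Members varied together from library to library. Over the 861 pairs of members the median Pearson r was 0.698 in the 27 libraries of the first part and 0.693 in the 24 of the second, and 0.512 and 0.467 after the time-point means were taken out. These libraries share their normalisation and dissection, so the values are a description. Mcm5 followed the mean of the other members most closely in the first part (r = 0.949) and Rrm2 in the second (r = 0.970). The loosest in the first part were Orc1 (0.646), Ccne2 (0.651) and Pold1 (0.674). In the second part they were Chaf1b (-0.197), Orc1 (0.280) and E2f8 (0.495).

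Among the genes outside all lists that were most like the mean of the members over the 51 libraries, centred within parts, were Tuba1b (r = 0.917), Cnpy4 (0.911), Fignl1 (0.908), Exo1 (0.906), Tcf19 (0.897), Nans (0.896), Atad2 (0.889), Lmnb1 (0.887) and Snrpa1 (0.876). Exo1 is a nuclease of DNA repair and Lmnb1 a lamin of the nuclear envelope.

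Some members are uncertain as single genes. Exons of 16 of the 42 overlap another annotated gene, and for 10 that gene has its own row in the table, among them Orc6 with Vps35, Mcm7 with Cops6 and Ap4m1, Tk1 with Afmid and Rfc2 with Lat2. Strand-specific counting is not stated in the labels or file headers.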

How the data were processed

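RNA was taken from fetal kidneys at 13 time points, enriched for polyadenylated messages and sequenced on Illumina instruments, per the labels' protocols. Reads were demultiplexed with bcl2fastq, aligned with STAR 2.5.2b to mm10 and counted with featureCounts 1.5.0-p3, per the submitters' processing notes. The values the authors deposited are a normalised expression score per gene, rounded to whole numbers: library totals (34226024 to 35711911) and upper quartiles (2375 to 2425.5) are closer than raw counts of libraries of different depth would be. No label or file header names the normalisation or the annotation. A count test was therefore not used, although the table's name speaks of counts, and depth is unknown. The authors also deposited rhythm statistics with q-values, periods in hours, phases and a relative amplitude, which is a ratio of amplitude to mean level.

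Values were taken as log2(value + 1), and 14426 of the 16099 genes, those whose mean reached 10, were tested. Tests used limma 3.58.1 in R 4.3.3 with moderation that was robust and followed the mean-variance trend, two-sided, with Benjamini-Hochberg adjustment over all tested genes and a threshold of 0.05. Contrasts and lines were fitted within each part (27 and 24 libraries), and the difference of slopes and the 24 h wave on all 51 libraries with a step between the parts. Samples were grouped by their titles. In all 9 comparisons were made, of which CT40 against CT36 and CT48 against CT44 were added after the values were seen. The members, the pathway and marker lists and the per-part fit were chosen with earlier results of these data known. Named genes were 24 members listed by role, the members of largest and smallest change in each comparison, up to 3 genes of each other list and the 10 genes in no list most like the members, of which 1 is not reported here. Any other gene named was chosen after its values were seen.

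Tested on simulated data with 200 changed genes among 14426, the fit recovered 90% of changes of 0.5 on the log2 scale for CT24 against CT0, 67% for CT36 against CT32, 62% for CT40 against CT36 and 55% for CT48 against CT44. For changes of 0.25 it recovered 67%, 26%, 18% and 25%. Of the calls in the simulated difference of slopes, 13.9% were of unchanged genes. The simulated noise was independent between genes, and in most comparisons fewer genes were changed than were called in the real data. These shares therefore need not hold for the real data. Promoter windows came from RefSeq and gene positions from GENCODE on GRCm38. Other steps used Python 3.11.15, pandas 2.3.3 and numpy 2.4.6. Alternatives were another pseudocount, filter, scaling and moderation, a replicate block by title or library ID, 1 fit of all libraries, time-point means, and leaving out libraries or time points.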

Additional observations from a re-analysis of the deposited data

Results flagged for a closer look

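In 21 members the slopes of the 2 parts of the series differed (limma, difference of slopes, adjusted p under 0.05), 20 with the lower slope in CT28 to CT48 and 1 with the higher. This compares with 29.8% and 25.3% of all genes. The fit takes 1 spread per gene for both parts, although libraries varied more in the second. For the lower slopes the differences per 24 h on the log2 scale were -0.31 for Mcm6, -0.57 for Cdc45, -0.59 for Gins1, -0.62 for Gins2, -0.55 for Gins4, -0.97 for Pola1, -0.45 for Pola2, -0.93 for Prim1, -0.51 for Prim2, -0.66 for Pole2 and -0.71 for Pold1. They were -0.45 for Pcna, -0.92 for Rfc2, -0.72 for Rfc4, -0.76 for Rfc5, -0.56 for Rrm2, -1.25 for Tyms, -0.75 for Tk1, -0.43 for Ccne1 and -0.84 for Ccne2. The higher slope was that of Chaf1b, 0.54. Without CT28 and CT32, which stood apart, 2 members had the lower slope.

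In 24 of 516 sets of 4 libraries at 1 time point (each of the 42 members and their mean), 0 of them for the mean, the highest or lowest library lay far from the other 3 (Dixon's ratio above its critical value). Chance flags about 1 set in 20. Low libraries were those of Orc1 at CT36 (144, next 292), Mcm2 at CT12 (3629), Mcm10 at CT40 (680), Prim1 at CT4 (1145), Prim2 at CT24 (727), Pcna at CT4 (5236) and CT36 (5176), Rfc3 at CT44 (1072) and Ccne1 at CT36 (539). High libraries were those of Mcm3 at CT40 (3937, next 2920), Gins2 at CT12 (955) and CT36 (944), Gins4 at CT44 (1214), Prim1 at CT36 (1420), Pold1 at CT44 (1477), Rfc2 at CT48 (2019), Rfc3 at CT4 (1316) and CT24 (1190), Rpa2 at CT12 (1363), Ccne2 at CT16 (1226), E2f1 at CT48 (1199), E2f2 at CT36 (608) and CT40 (595) and E2f8 at CT8 (1361). Replicate 4 of CT36 was the low library for Orc1, Pcna and Ccne1.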

How the results depend on the processing

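The 41 members lower at CT24 than at CT0, the 25 lower at CT36 than at CT32 and the 10 lower at CT40 than at CT36 stayed within 1.5 times of these counts under all 19 alternatives each, between 32 and 42, between 21 and 27 and between 7 and 12. The other counts moved, and the cause was not tested beyond the fewer libraries or time points that an alternative uses. For the slope of CT0 to CT24 (35 lower) the counts were 3 with time-point means, 10 without CT0 and 3 without CT24, and leaving out a replicate number gave 13 to 36. For the slope of CT28 to CT48 (33 lower, 1 higher) 19 were lower with time-point means, 19 without CT28 and 1 without CT28 and CT32, and 0 were higher with time-point means, without CT32 or without CT48. For the difference of slopes (20 lower, 1 higher) 34 were lower without CT48 and 2 without CT28 and CT32, and 2 were higher without CT28 and 4 without both.

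For CT48 against CT36 (2 lower, 3 higher) 1 was lower with plain moderation, 1 without the 2 libraries of another ID prefix and 5 in 1 fit of all libraries. Leaving out a library gave 0 to 3 lower and 1 to 3 higher. For CT40 against CT36 (2 higher) it was 4 in 1 fit of all libraries and 1 to 3 without a library. For CT36 against CT32 (0 higher) leaving out a library gave 0 to 1. For CT48 against CT44 (2 higher) it was 0 with plain moderation, without the 2 libraries of another ID prefix and with only the 2 groups, 16 in 1 fit of all libraries and 0 to 6 without a library.

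For the 24 h wave (4 passed) the counts were 2 with plain moderation, without the 2 libraries of another ID prefix or without CT40, and 0 with time-point means, without CT0 or without CT32. They were 8 without CT4, 10 without CT8, 1 without CT12, 15 without CT16, 8 without CT20, 1 without CT44, 1 without CT28 and CT32 and 30 with no step. Leaving out a replicate number gave 0 to 1.

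With the replicate number as a block the 24 h wave passed for 2 members and the other counts stayed within 1.5 times. The median correlation of the deviations of same-numbered libraries was 0.0546 over 138 pairs, with 56 over 0.1, against -0.0199 for different numbers. Not every pair was over 0.1, and the numbers were not read as pairs. This check cannot show that the libraries are unpaired, since linked libraries need not all pass 0.1. The numbers in the titles differ from the set in the library ID for 4 of the 49 libraries that have one, so fits by replicate number mix the sets. By the ID the medians were 0.0653 and -0.0256. With a replicate block by that ID set, added after seeing the data, 1 member was lower at CT48 than at CT36 and 2 passed for the 24 h wave, and the other counts stayed within 1.5 times.

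Of 179 called values of single members, 17 changed sign, all without CT28 and CT32. For the slope of CT28 to CT48 these were Orc6 0.12, Cdc6 0.19, Mcm4 0.041, Mcm5 0.044, Lig1 0.14, Rpa2 0.0057, Rrm1 0.040, Rrm2 0.10, E2f1 0.021, E2f2 0.052 and Uhrf1 0.18. For the difference of slopes they were Gins1 0.22, Gins2 0.055, Pole2 0.27, Rrm2 0.32, Tk1 0.074 and Ccne1 0.10. Depth could not be used to set limits, since the values keep none.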
